A study of Mus musculus with 12 samples.

Results

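The T cell receptor is built from an alpha and a beta chain, whose constant parts are encoded by Trac and by Trbc1 and Trbc2, and it reaches the cell surface only together with the CD3 chains encoded by Cd3d, Cd3e, Cd3g and Cd247. The kinase Lck phosphorylates the tyrosine motifs of the CD3 chains once the receptor is engaged, and Cd2 encodes an adhesion receptor of T cells and natural killer (NK) cells. These 9 genes were chosen by name from a table of 55322 genes, to be compared by role across dendritic cell groups of lymphoid and myeloid origin. Dendritic cells do not carry a T cell receptor. Constant region genes can nevertheless be transcribed without a rearranged receptor, and NK cells use Cd247, Lck and Cd2 without one.

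RNA was sequenced from type 2 conventional dendritic cells (cDC2) of the spleen in 4 groups of 3 libraries, all collected 4 days after 5 mg/kg of lipopolysaccharide (LPS) given intraperitoneally. L-cDC2 were tdTomato-positive and M-cDC2 tdTomato-negative cells of Il7r-cre; Rosa26-lsl-tdTomato mice, in which cells that have expressed Cre from the interleukin-7 receptor gene, and their progeny, keep tdTomato. The marker records that history and not the present cell type, so any cell with an Il7r-expressing ancestor can carry it. CLP-cDC2 and CDP-cDC2 were CD45.2+ cells that arose in CD45.1+ B6.SJL hosts after common lymphoid progenitors (CLP) or common dendritic cell progenitors (CDP) of wild-type mice had been placed in their bone marrow. The labels give C57BL/6J mice of 7 to 8 weeks for all samples. The study's stated aim was to compare cDC2 arising from CLPs with L-cDC2. The labels do not say whether libraries of a group came from separate mice, so p-values measure the spread between these libraries, which may be technical.

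Levels are FPKM, in which a count of fragments is divided by the length of the gene and the number of fragments assigned in the library, so that genes of unlike length can be compared. Assigned reads per library, recovered from the steps of the values, ran from 26543364 to 73732175. Every library had 11 or 12 of 12 cDC2 identity genes at 1 FPKM or more, which counts presence and not level. By the test given below, 8 of the 12 were called lower in CLP-cDC2 than in CDP-cDC2, with 6.12% of all genes tested. Against L-cDC2, 6 were called lower in CLP-cDC2, with 6.32%. In L-cDC2 against M-cDC2, 1 was called higher and 1 lower, with 1.29% and 0.44%. A gene was tested when it reached 1 FPKM in at least 3 libraries, which 14538 genes did. Of the 9 genes, 6 passed (Trac, Trbc1, Trbc2, Cd247, Lck and Cd2). Cd3d, Cd3e and Cd3g stayed under 1 FPKM in all 12 libraries. Cd247 passed through its 3 L-cDC2 libraries alone and Trac through 3 L-cDC2 and 1 M-cDC2 library, so their passing the filter already reflects the L-cDC2 level. In bulk RNA, a few cells with much of a transcript and many cells with little cannot be told apart.

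The beta constant genes are near copies, which bears on how far their values can be separated. In the GRCm38 reference (GENCODE M21 transcripts), their first coding exons of 375 bases differed at 1 position, C260A, with the Trbc1 base first and positions counted from 1 at the start of the exon. A 61-base stretch around it (Trbc1 chr6:41538447-41538507 and Trbc2 chr6:41546959-41547019, both on the plus strand) is shown because reads from this exon that do not cross the capital base match both genes.
Trbc1: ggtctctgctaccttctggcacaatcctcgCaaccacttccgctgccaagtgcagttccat
Trbc2: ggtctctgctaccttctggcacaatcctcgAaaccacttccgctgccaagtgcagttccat
The capital marks the differing base. Coding exon 3 (107 bases) differed at 15 positions, exon 2 (18 bases) at 3 and exon 4 (18 bases) at 4. The recovered read numbers of both genes held fractions (439.2 for Trbc1 and 673.4 for Trbc2 in L-cDC2 replicate 3), so some reads were counted in part. The split between the pair is uncertain, and the sum of both is given beside their own values.

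The beta constant genes were highest in L-cDC2. Trbc2 (ENSMUSG00000076498, chromosome 6, 41523664 to 41525286 as deposited) was at 6.33, 10.5 and 13.2 FPKM in L-cDC2 replicates 1 to 3 and at 0.719, 0 and 0.0285 FPKM in M-cDC2. In CLP-cDC2 it was at 0.865, 1.80 and 1.42 FPKM, and in CDP-cDC2 at 0.474, 0.773 and 0.452 FPKM. The L-cDC2 libraries lay above all others, CLP-cDC2 lay above CDP-cDC2 without overlap, and CDP-cDC2 overlapped M-cDC2 through M-cDC2 replicate 1. Trbc1 (ENSMUSG00000076490, chromosome 6, 41515152 to 41516815) was at 4.60, 4.87 and 7.95 FPKM in L-cDC2 and at 0.582, 0.0271 and 0 FPKM in M-cDC2. In CLP-cDC2, Trbc1 was at 2.44, 2.96 and 1.03 FPKM, and in CDP-cDC2 at 0.0365, 1.11 and 0.0736 FPKM. CDP-cDC2 replicate 2 stood above CLP-cDC2 replicate 3, so those groups overlapped. Summed over both genes, the level was 15.8 ± 5.13 FPKM in L-cDC2, 3.5 ± 1.17 in CLP-cDC2, 0.972 ± 0.786 in CDP-cDC2 and 0.452 ± 0.735 in M-cDC2 (mean ± SD, n = 3).

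Differences were tested with limma on log2(FPKM + 1), fitted over all genes and libraries with Benjamini-Hochberg adjustment, and this scale understates the change of low genes. L-cDC2 exceeded M-cDC2 by 3.14 for Trbc2 (SE 0.27, limma adjusted p = 2.418e-05) and by 2.50 for Trbc1 (SE 0.33, limma adjusted p = 0.0008148). CLP-cDC2 exceeded CDP-cDC2 by 1.19 for Trbc1 (SE 0.33, limma adjusted p = 0.03379). The Trbc1 call was lost in 9 of 24 alternatives, among them those without CDP-cDC2 replicate 1, CDP-cDC2 replicate 3, CLP-cDC2 replicate 1 or CLP-cDC2 replicate 2 (limma adjusted p = 0.0893, 0.106, 0.0955 and 0.132). For Trbc2 the CLP-cDC2 minus CDP-cDC2 difference was 0.58 (95% interval -0.01 to 1.17, limma adjusted p = 0.1821).

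The alpha constant gene Trac (ENSMUSG00000076928, chromosome 14, 54457978 to 54461663) was lower and more even. It was at 2.12, 1.25 and 2.23 FPKM in L-cDC2, at 0.214, 0.499 and 1.03 FPKM in M-cDC2, at 0.0630, 0.633 and 0.655 FPKM in CLP-cDC2 and at 0.819, 0.820 and 0.957 FPKM in CDP-cDC2. The L-cDC2 libraries lay above the other 9, and CLP-cDC2 lay below CDP-cDC2 in every library. The L-cDC2 minus M-cDC2 difference was 0.87 (95% interval 0.36 to 1.38) and did not pass (limma adjusted p = 0.1205), except with array weights (limma adjusted p = 0.00149). CLP-cDC2 minus CDP-cDC2 was -0.39 (limma adjusted p = 0.2975), the opposite sign to both beta genes.

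**Figure D1:**
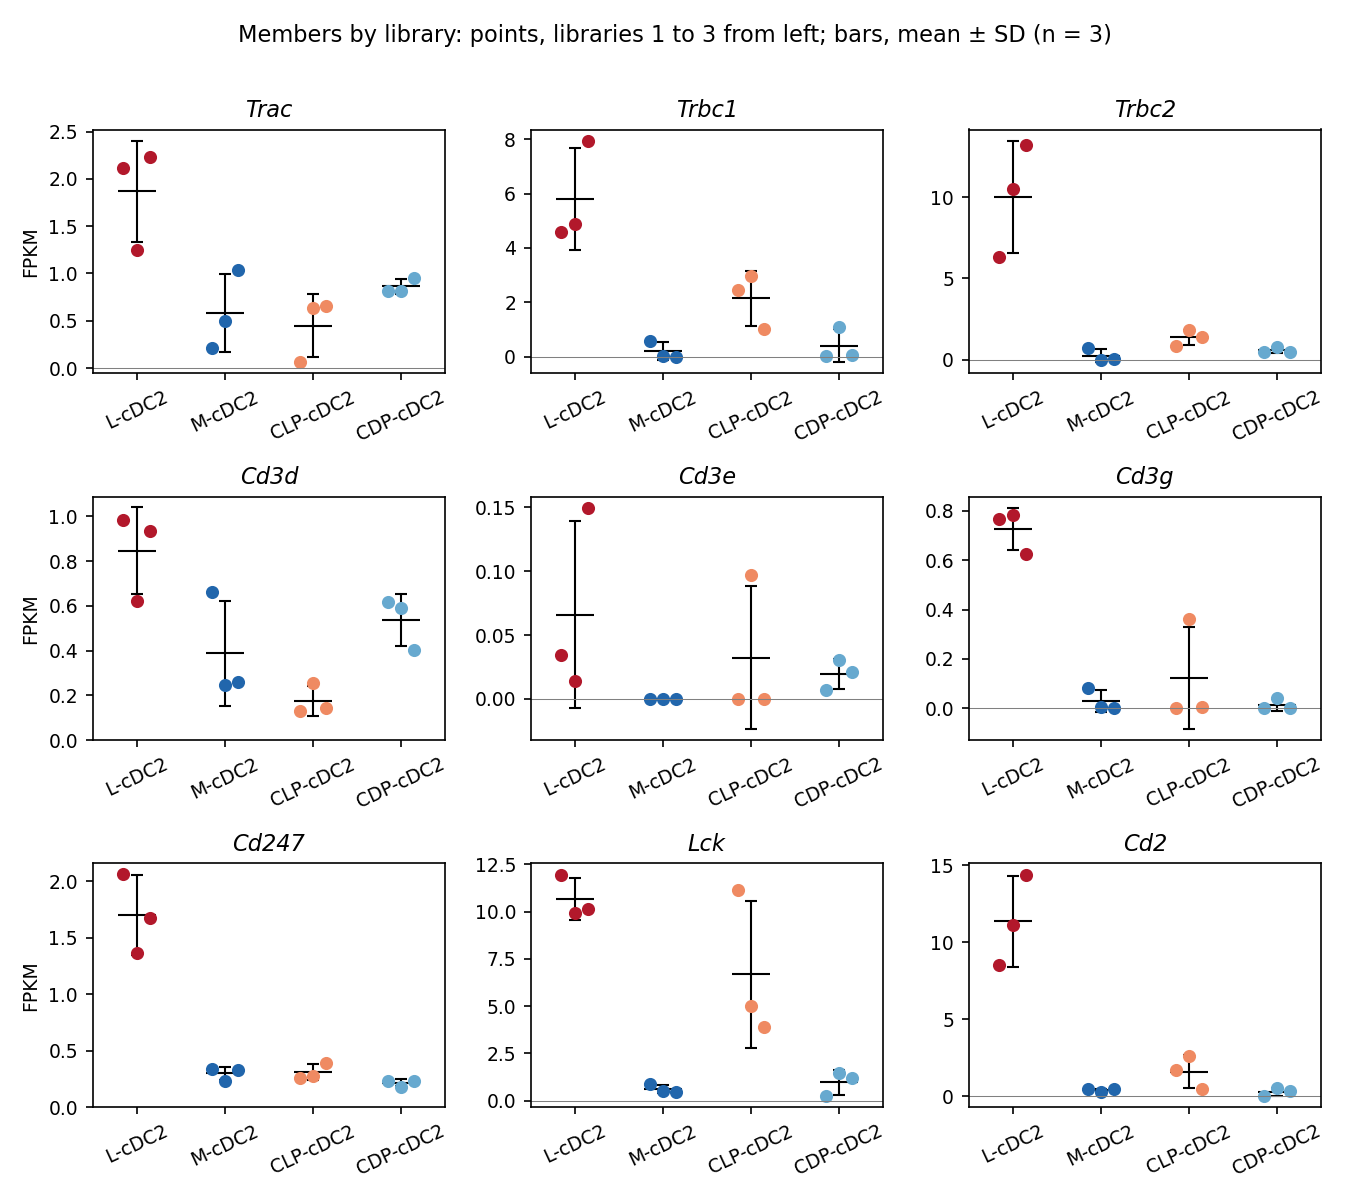
FPKM (vertical axes, linear, a scale for each gene) of the 9 genes in the 12 libraries, with points for libraries 1 to 3 of each group from left to right and bars for the mean ± SD (n = 3). L-cDC2 libraries are the highest group mean in every panel, Lck in CLP-cDC2 (3.92 to 11.1 FPKM) reaches the L-cDC2 range, and Cd3e is no higher than 0.150 FPKM in any library.

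The 3 CD3 chains encoded side by side on chromosome 9 were scarce in all groups. Cd3e (ENSMUSG00000032093, 44910038 to 44920925), without which no T cell receptor is assembled, was at 0.0342, 0.0138 and 0.150 FPKM in L-cDC2, which corresponds to 5, 1.5 and 45 reads. It had 0 reads in all 3 M-cDC2 libraries, where 3 reads would have been 0.0145 to 0.0163 FPKM. In CLP-cDC2 it had 0, 18 and 0 reads, and in CDP-cDC2 1, 7 and 3.5 reads. Cd3e was thus under or near the floor of 3 reads in most libraries, and no fold is given.

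Cd3g (ENSMUSG00000002033, 44880870 to 44891729) was at 0.767, 0.784 and 0.626 FPKM in L-cDC2, from 68 to 151 reads. In M-cDC2 it was at 0.0814, 0.00621 and 0 FPKM, in CLP-cDC2 at 0, 0.362 and 0.00721 FPKM, and in CDP-cDC2 at 0, 0.0436 and 0 FPKM. All 3 L-cDC2 libraries lay above the other 9, and CLP-cDC2 replicate 2 held 54 of the reads of its group while the others held 0 and 1. Cd3d (ENSMUSG00000032094, 44893084 to 44898637) was at 0.983, 0.623 and 0.934 FPKM in L-cDC2, 0.660, 0.246 and 0.260 in M-cDC2, 0.130, 0.254 and 0.143 in CLP-cDC2 and 0.618, 0.589 and 0.405 in CDP-cDC2. Its L-cDC2 and M-cDC2 libraries overlapped, and all CLP-cDC2 libraries lay below all CDP-cDC2 libraries.

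None of the 3 could be tested in the filtered table. In a fit without the filter (44519 genes), Cd3g was higher in L-cDC2 than in M-cDC2 by 0.75 (SE 0.11, limma adjusted p = 0.01668), whereas Cd3d (0.42, limma adjusted p = 0.6286) and Cd3e (0.09, limma adjusted p = 0.8319) did not pass. With limma-voom on the recovered reads the adjusted p was 0.03858 for Cd3g, 0.1632 for Cd3d and 0.008749 for Cd3e. None of the 3 passed in CLP-cDC2 minus CDP-cDC2 by either fit (limma adjusted p = 0.6556, 0.2872 and 0.9649 for Cd3g, Cd3d and Cd3e without the filter).

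The zeta chain gene Cd247 (ENSMUSG00000005763, chromosome 1, 165616250 to 165704846) carries most of the signalling motifs of the complex and also serves activating receptors of NK cells. It was at 2.06, 1.36 and 1.67 FPKM in L-cDC2, and between 0.181 and 0.396 FPKM in the other 9 libraries. L-cDC2 exceeded M-cDC2 5.68-fold in mean FPKM and by 1.05 on the log2 scale (SE 0.15, limma adjusted p = 0.001531). CLP-cDC2 minus CDP-cDC2 was 0.11 (95% interval -0.22 to 0.43, limma adjusted p = 0.6746). Of its 5329 exon bases, 3007 are shared with exons of the antisense gene Pou2f1, and the sources used here do not state whether counting used strand. Pou2f1 was at 0.677 to 1.06 FPKM in L-cDC2 and 0.541 to 1.0 FPKM in M-cDC2, ranges that overlap, and at 1.11 to 1.26 FPKM in CLP-cDC2. Reads of either gene in the shared bases cannot be told apart.

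Lck (ENSMUSG00000000409, chromosome 4, 129442137 to 129467434, minus strand) showed another pattern, with high levels in both groups of lymphoid origin. It was at 11.96, 9.90 and 10.2 FPKM in L-cDC2 and at 11.1, 5.03 and 3.92 FPKM in CLP-cDC2. It was at 0.875, 0.541 and 0.484 FPKM in M-cDC2 and at 0.243, 1.47 and 1.19 FPKM in CDP-cDC2. The 6 libraries of lymphoid origin all lay above the 6 of myeloid origin, and CLP-cDC2 replicate 1 lay within the L-cDC2 range. Read numbers were 488 or more in each of the former and 241.5 or fewer in each of the latter. The mean was 16.9-fold higher in L-cDC2 than in M-cDC2 and 6.93-fold higher in CLP-cDC2 than in CDP-cDC2.

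On the log2 scale these differences were 2.84 (SE 0.31, limma adjusted p = 0.000176) and 1.92 (SE 0.31, limma adjusted p = 0.002409), and both stayed past the threshold in all 25 alternatives. For Lck, CLP-cDC2 minus L-cDC2 was -0.71 and did not pass after adjustment (95% interval -1.39 to -0.03, limma adjusted p = 0.1697). Without CLP-cDC2 replicate 1 that difference was -1.09 and passed (limma adjusted p = 0.0351). The microRNA gene Mir8119 lies inside Lck and shares 25 exon bases with it on the same strand, and it followed Lck at 10.8 to 11.9 FPKM in L-cDC2, 3.47 to 6.05 in CLP-cDC2 and at most 1.63 in the other groups.

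Mouse Lck is known to have 2 promoters, of which the one nearer the coding exons is typical of thymocytes and the upstream one is also used in mature T cells. Gene totals do not say which was used. The RefSeq windows (GRCm38.p6, minus strand, 250 bases before to 50 after the start) are shown with that of Cd3e, the member closest to absence, so that the regulatory sequence of a gene that rose in both comparisons stands beside one that was near the floor. The windows are chr4:129573592-129573891 (upstream Lck), chr4:129558323-129558622 (downstream Lck) and chr9:45009562-45009861 (Cd3e).
Lck upstream: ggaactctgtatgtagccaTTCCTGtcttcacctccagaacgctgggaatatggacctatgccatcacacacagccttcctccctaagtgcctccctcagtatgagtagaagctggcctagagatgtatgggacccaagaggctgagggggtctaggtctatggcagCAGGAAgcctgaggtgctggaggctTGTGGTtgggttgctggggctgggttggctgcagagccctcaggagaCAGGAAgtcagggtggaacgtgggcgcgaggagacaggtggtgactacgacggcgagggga
Lck downstream: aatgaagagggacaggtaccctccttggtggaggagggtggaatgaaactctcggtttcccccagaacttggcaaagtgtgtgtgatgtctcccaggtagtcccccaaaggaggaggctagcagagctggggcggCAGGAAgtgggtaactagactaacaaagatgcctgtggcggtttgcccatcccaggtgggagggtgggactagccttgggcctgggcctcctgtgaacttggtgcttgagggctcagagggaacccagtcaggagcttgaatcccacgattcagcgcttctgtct
Cd3e: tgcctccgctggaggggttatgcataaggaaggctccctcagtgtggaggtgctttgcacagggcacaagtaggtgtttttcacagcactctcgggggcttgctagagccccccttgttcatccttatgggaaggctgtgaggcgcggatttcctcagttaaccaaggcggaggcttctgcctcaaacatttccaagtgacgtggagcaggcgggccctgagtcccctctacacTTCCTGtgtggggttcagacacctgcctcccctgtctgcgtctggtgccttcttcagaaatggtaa
Capitals mark the letters CAGGAA (a form of the Ets family motif) and TGTGGT (the Runx motif) on either strand, with TTCCTG as the reverse complement of the former. The Ets letters CAGGAA occurred 3 times in the upstream Lck window, 1 time in the downstream one and 1 time in that of Cd3e, and it occurs in 30.6% of the 32851 promoter windows of this length. TGTGGT occurred 1 time in the upstream Lck window and in neither of the others, against 16.8% of all windows. The E box letters CAGCTG were in none of the 3 and are in 16.3% of all windows. The letters AGATAA, bound by factors of the Gata family, were in none of them either and are in 11.2% of all. Windows were found for 5 of the 9 genes.

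Cd2 (ENSMUSG00000027863, chromosome 3, 101183215 to 101195255), whose product binds Cd48 in the mouse, was at 8.55, 11.1 and 14.4 FPKM in L-cDC2. It was at 0.459, 0.291 and 0.464 FPKM in M-cDC2, at 1.73, 2.62 and 0.50 FPKM in CLP-cDC2 and at 0.0157, 0.532 and 0.352 FPKM in CDP-cDC2. L-cDC2 stood apart from all other libraries, while CLP-cDC2 replicate 3 lay below CDP-cDC2 replicate 2. The L-cDC2 mean was 28.1-fold that of M-cDC2, a difference of 3.11 on the log2 scale (SE 0.29, limma adjusted p = 4.165e-05). CLP-cDC2 minus CDP-cDC2 was 0.94 (SE 0.29) and missed the threshold narrowly (limma adjusted p = 0.05056). It passed in 4 of 25 alternatives, of which the fit without CLP-cDC2 replicate 3 gave a difference of 1.29 (limma adjusted p = 0.00772).

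Counted over the tested members, 5 of 6 rose in L-cDC2 over M-cDC2, where 1.29% of all genes tested were called higher, and 2 of 6 (Lck and Trbc1) rose in CLP-cDC2 over CDP-cDC2, where 7.02% were. Since Cd247 passed the filter only through L-cDC2, the first count is not read as support. The median difference over the 6 was 2.67 for L-cDC2 minus M-cDC2, against 0.04 over all genes tested, and 0.76 for CLP-cDC2 minus CDP-cDC2, against -0.01. Among all 9 genes, 8 had every L-cDC2 library above every M-cDC2 library, the exception being Cd3d, and 12.7% of the tested genes did so. For Cd3e this rested on as little as 1.5 reads in L-cDC2 replicate 2. The share covers tested genes only, whereas 3 of the 9 (Cd3d, Cd3e and Cd3g) were under the filter. Cd247 and Trac had passed the filter mainly through L-cDC2, so the 8 are not read as support. For CLP-cDC2 above CDP-cDC2 the number was 3 (Trbc2, Cd247 and Lck), with 16.7% of the tested genes, and Cd3d and Trac were separated the other way, as were 13.0% of the tested genes. Between the groups of myeloid origin, CDP-cDC2 minus M-cDC2, 0 of 6 were called by limma at the threshold, 0 at an unadjusted p under 0.05 and 0 by limma-voom, against 1.62% of all genes called higher.

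**Figure D2:**
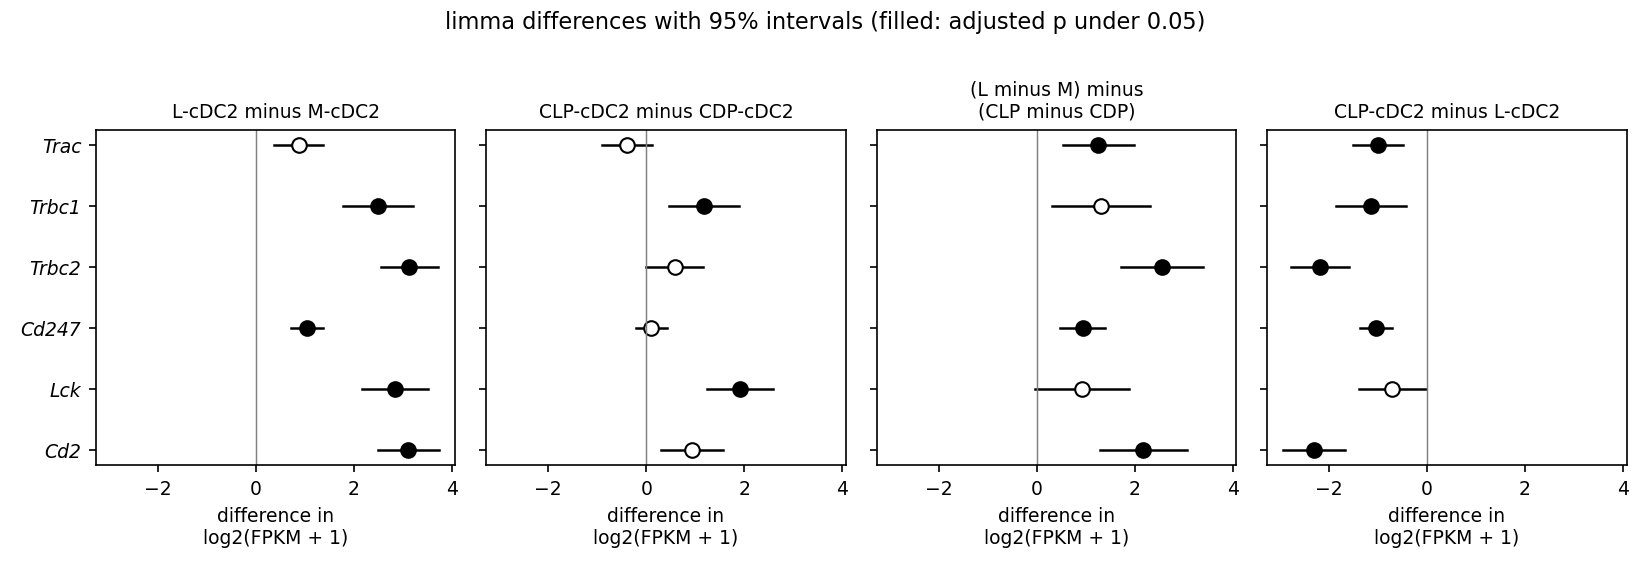
Differences in log2(FPKM + 1) from limma (horizontal axes) with 95% intervals for the 6 tested genes, filled where the adjusted p is under 0.05. From left, the panels show the lineage comparison in the fate-mapping mice, the lineage comparison after transfer, the first minus the second, and the transferred against the fate-mapped lymphoid group. Lck is the gene with the largest difference in the second panel (1.92) and an open symbol in the third and the fourth.

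The lineage difference itself was larger in the fate-mapping mice than after transfer for 4 of the 6 genes, where 3.61% of all genes were called in that direction. This count is not read as support either, since Cd247 and Trac reached the test through their high L-cDC2 libraries. It was larger by 2.56 for Trbc2 (SE 0.38, limma adjusted p = 0.003728) and by 2.18 for Cd2 (SE 0.41, limma adjusted p = 0.01237). For Trac it was larger by 1.26 (SE 0.33, limma adjusted p = 0.04375), a call lost in 10 of 12 fits with 1 library left out (limma adjusted p from 0.0353 to 0.0953). For Cd247 it was larger by 0.94 (SE 0.21, limma adjusted p = 0.02462), a call lost in 5 of 12 such fits, those without M-cDC2 replicate 2, CLP-cDC2 replicate 1, CLP-cDC2 replicate 2, L-cDC2 replicate 1 and L-cDC2 replicate 3 (limma adjusted p from 0.0523 to 0.0684). The Cd2 call was lost with a pseudocount of 0.1, without the filter and with limma-voom (limma adjusted p = 0.13, 0.0666 and 0.296). Without the filter, the calls of Cd247 and Trac were lost too (limma adjusted p = 0.0564 and 0.152). For Lck (0.93, 95% interval -0.04 to 1.89, limma adjusted p = 0.2183) and Trbc1 (1.31, 95% interval 0.31 to 2.32, limma adjusted p = 0.1079) the difference between the systems did not pass.

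Compared directly, CLP-cDC2 were lower than L-cDC2 for 5 of 6 genes, with 6.32% of all genes called lower, and here too Cd247 and Trac had entered through L-cDC2. Cd2 fell by 2.31 (SE 0.29, limma adjusted p = 0.0003299), Trbc2 by 2.19 (SE 0.27, limma adjusted p = 0.0003059) and Cd247 by 1.04 (SE 0.15, limma adjusted p = 0.0009175). Trbc1 fell by 1.14 (limma adjusted p = 0.04553) and Trac by 0.99 (limma adjusted p = 0.01846). The Trbc1 call was lost in 11 of 24 alternatives, 7 of which left out 1 library (limma adjusted p from 0.0512 to 0.149 in those). The Trac call was lost without CLP-cDC2 replicate 1, L-cDC2 replicate 1 or L-cDC2 replicate 3 (limma adjusted p = 0.0733, 0.0642 and 0.0696). L-cDC2 and CLP-cDC2 came from mice of different genotype and by different isolation routes, and origin, host and route cannot be told apart in this comparison.

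To compare roles within a library, the difference between 2 genes on the log2(FPKM + 1) scale was taken in each library, and the groups of lymphoid origin were set against those of myeloid origin, permuting libraries within each system (exact permutation test over 400 arrangements, two-sided, smallest p 0.005, adjusted over 9 pairs). Lck gained on Trac by 2.14 in the lymphoid groups and on Cd247 by 1.80 (exact permutation, adjusted p = 0.01125 for each). Outside L-cDC2, Trac and Cd247 were mostly under 1 FPKM, where the added 1 shrinks differences. These 2 gains therefore largely restate the lineage differences of Lck itself (2.84 and 1.92). Trbc2 gained on Trac by 1.62 (exact permutation, adjusted p = 0.01125), with a Trbc2 minus Trac difference of 1.91 ± 0.60 in L-cDC2 and 0.71 ± 0.14 in CLP-cDC2 but -0.35 ± 0.77 in M-cDC2 and -0.26 ± 0.20 in CDP-cDC2 (mean ± SD, n = 3). With Trac so low, the gain of Trbc2 likewise largely restates its own lineage differences (3.14 and 0.58). The second of these did not pass (limma adjusted p = 0.1821). As a plain FPKM ratio of the summed beta genes to Trac, the groups overlapped. M-cDC2 replicate 1 (6.09) lay above L-cDC2 replicate 1 (5.16) and CLP-cDC2 replicate 3 (3.74). M-cDC2 replicates 2 and 3 were at 0.0543 and 0.0276, and CDP-cDC2 at 0.549 to 2.29. The Lck minus Trac difference was 2.04 ± 0.25 in L-cDC2 and 2.32 ± 1.04 in CLP-cDC2, and 0.07 ± 0.54 in M-cDC2 and 0.02 ± 0.51 in CDP-cDC2 (mean ± SD, n = 3). The 4 pairs that include Cd3e, of which 3 passed, are not read as a change between genes, since Cd3e was so near 0 that such a difference restates the other gene. The pairs Trbc1 and Trbc2 (-0.01) and Cd2 and Lck (-0.35) did not pass (exact permutation, adjusted p = 0.96 and 0.3729).

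Reads over the other segments of the receptor loci show what accompanied the constant genes. Scaled to the assigned reads (reads per 1000000), Trbc2 stood at 6.93 ± 2.40 in L-cDC2, Trbc1 at 4.35 ± 1.40, the D1 and J1 segments together at 0.921 ± 0.213, the D2 and J2 segments at 0.777 ± 0.167 and the 35 listed V segments at 0.839 ± 0.176 (mean ± SD, n = 3). The V segments held 27 to 49 reads in each L-cDC2 library, on 4 or 5 segments with at least 3 reads. In CDP-cDC2 they held 5, 61 and 3.5 reads in replicates 1 to 3, in CLP-cDC2 0 to 23.5 and in M-cDC2 0 to 15. Of the CDP-cDC2 libraries, only replicate 2 reached the L-cDC2 range of V segment reads, and its constant genes stayed below those of L-cDC2. That replicate also held most Trbc1 reads of its group (46.5, against 1 and 2.25). D and J segments held 20.8 to 59.9 (D1 and J1) and 18 to 71.5 reads (D2 and J2) in L-cDC2, against at most 0.42 and 1.5 reads in M-cDC2. In CLP-cDC2 replicate 1 they held 25.2 reads on the D1 and J1 side, 7 of them on the 12-base Trbd1, while its V segments held 0 reads. Segment totals do not tell rearranged from unrearranged transcripts.

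**Figure D3:**
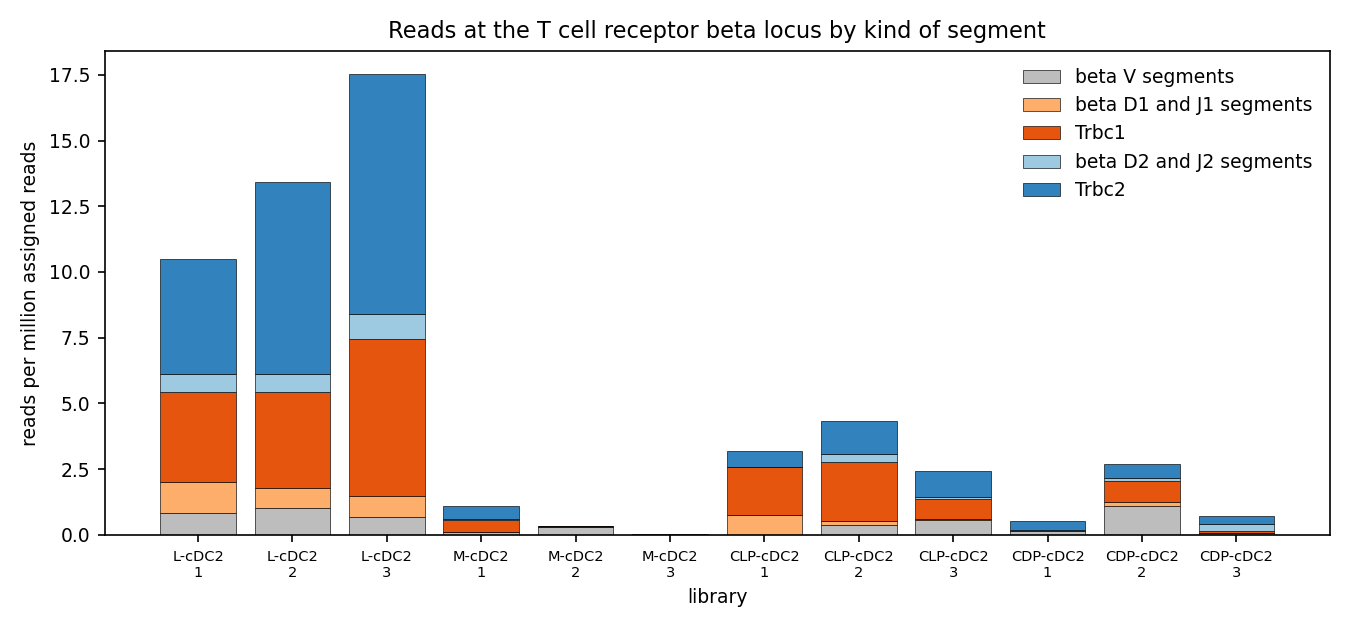
Reads scaled to assigned reads (vertical axis, reads per 1000000) at the T cell receptor beta locus in each of the 12 libraries (horizontal axis), stacked by kind of segment in their order of listing. Constant genes make up most of each L-cDC2 bar, and the M-cDC2 replicate 3 bar is close to 0.

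At the alpha locus, Trac held 31 to 154 reads in L-cDC2 and the 60 listed J segments together 6 to 42. The 130 alpha V segments held 60.3 to 146 reads in L-cDC2, 38 to 112 in CLP-cDC2, 21 to 60.0 in M-cDC2 and 1 to 60.0 in CDP-cDC2. The constant genes of the gamma and delta chains, which form the other kind of T cell receptor, were low in all groups. The 4 gamma constant genes held 24 to 197.5 reads in L-cDC2, 0.99 to 17 in CLP-cDC2, 0 to 18 in CDP-cDC2 and 0 to 2 in M-cDC2. Trdc held 9 to 61 reads in L-cDC2, 0 in CLP-cDC2, and at most 2 and 4 in CDP-cDC2 and M-cDC2. Trgc4 (24 to 110 reads) and Trdc were present in all 3 L-cDC2 libraries, whereas Trgc1 and Trgc2 had reads in only 1 of the 3 L-cDC2 libraries, replicate 3, and Trgc1 held 10.8 reads in CLP-cDC2 replicate 1 and 13.2 in CDP-cDC2 replicate 2. None of these 5 genes passed the filter, and they were not tested. The recombination genes were at or near 0, Rag1 at no more than 0.0282 FPKM in any library and Rag2 at no more than 0.271. Dntt, the template-independent polymerase of receptor joining, was at 0.113 to 0.545 FPKM in CLP-cDC2 and at 0 in L-cDC2 and M-cDC2.

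Of 26 listed genes of the wider receptor signalling pathway, 16 were tested. In L-cDC2 over M-cDC2, where 1.29% of all genes were called higher, 1 of the 16 rose. This was Sh2d2a, an adaptor that binds Lck (1.41, limma adjusted p = 0.0001429), at 1.46 to 1.86 FPKM against at most 0.00441. Sh2d2a reached 1 FPKM in L-cDC2 libraries alone, so the filter had admitted it through the group in which it was high. In CLP-cDC2 against CDP-cDC2, where 7.02% of all genes were called higher and 6.12% lower, 0 rose and 3 fell. These were Rasgrp1 (-1.57, limma adjusted p = 0.001213), the kinase gene Fyn (-1.19, limma adjusted p = 0.003816) and the adaptor gene Nck2 (-1.04, limma adjusted p = 0.00808). The median difference over the 16 was 0.20 in the first comparison and -0.24 in the second. Components shared with myeloid cells were abundant everywhere, such as the phosphatase Ptpn6 (493 to 661 FPKM), the adaptor Lcp2 (72.8 to 105 FPKM) and Vav1 (32.5 to 58.9 FPKM). The kinase Zap70, which binds phosphorylated CD3 chains, was at 0.419 to 1.39 FPKM in L-cDC2 and at most 0.279 elsewhere. Themis and Trat1 reached no more than 0.0752 and 0.0646 FPKM in any library.

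Some Src family kinases of myeloid cells were more abundant than Lck per length in all 12 libraries, Fgr at 115 to 195 FPKM and Lyn at 105 to 140 FPKM. Of the 5 tested, Blk, the kinase of B cells, rose in both comparisons (1.59, limma adjusted p = 0.0008399, and 1.0, limma adjusted p = 0.009217), while Fyn and Fgr (-0.47, limma adjusted p = 0.01607) fell in CLP-cDC2. Over all genes, 1.29% were called higher and 0.44% lower in L-cDC2 over M-cDC2. In CLP-cDC2 against CDP-cDC2, these shares were 7.02% and 6.12%. Among 10 ligands, relatives and partners of Cd2, 9 were tested and 0 were called in either comparison by limma. At the shares given above for all genes, 0 of 9 is not read as a result about them. Cd48 was at 238 to 403 FPKM in the 12 libraries.

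Among 19 coreceptor and T cell identity genes, 12 were tested. In L-cDC2 over M-cDC2, 3 were called higher, with 1.29% of all genes. In CLP-cDC2 against CDP-cDC2, 3 were called higher and 1 lower, with 7.02% and 6.12%. Tcf7, a transcription factor of T cells and lymphoid progenitors, rose in L-cDC2 (1.25, limma adjusted p = 0.000439) and in CLP-cDC2 (1.18, limma adjusted p = 0.0006409), at 6.20 to 7.29 and 7.54 to 9.69 FPKM against 2.11 to 3.69 FPKM in the myeloid groups. Ms4a4b rose in both (0.90, limma adjusted p = 0.005484, and 0.50, limma adjusted p = 0.04577), Gata3, which reached 1 FPKM in L-cDC2 alone, in L-cDC2 (0.99, limma adjusted p = 0.002892) and Cd8a in CLP-cDC2 (1.22, limma adjusted p = 0.01644). Cd4, which cDC2 also express, fell in CLP-cDC2 (-1.94, limma adjusted p = 0.0007626). Several genes of committed T cells were near 0 throughout, Bcl11b at no more than 0.0485 FPKM, Lef1 at no more than 0.0793, Cd28 at no more than 0.168 and Cd40lg at no more than 0.195. Others that were not tested were low but highest in L-cDC2, with Thy1 at 0.743 to 1.04 FPKM against at most 0.315 elsewhere, Ctla4 at 0.226 to 0.742 against at most 0.20 and Camk4 at 0.197 to 0.325 against at most 0.121. In all, 6 of the 19 stayed under 1 FPKM in every library.

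Markers of other lymphocytes moved with the members in L-cDC2. The 15 NK cell and innate lymphoid markers summed to 799 to 937 FPKM in L-cDC2, 394 to 428 in M-cDC2, 217 to 302 in CLP-cDC2 and 341 to 501 in CDP-cDC2. Ccl5 and Klrd1 made up most of the sum in each group, so the sums say little about the other markers. Ccl5 was at 440 to 484, 261 to 334, 47.7 to 111 and 205 to 319 FPKM in the same order of groups. Klrd1 was at 76.1 to 98.4, 56.3 to 95.4, 130 to 189 and 96.4 to 142 FPKM. Of the 14 tested, 10 rose in L-cDC2 over M-cDC2 (1.29% of all genes did), of which 5 (Gzmb, Ncr1, Prf1, Il2rb and Klrb1c) had reached 1 FPKM in L-cDC2 libraries alone. They included the granzyme gene Gzma at 95.4 to 136 FPKM against at most 0.617 (6.31, limma adjusted p = 9.123e-06), Nkg7 at 72.3 to 106 FPKM against at most 0.668 (5.92, limma adjusted p = 7.187e-05), Gzmb (3.61, limma adjusted p = 1.514e-06) and Ncr1, a receptor typical of NK cells (3.28, limma adjusted p = 7.703e-06). In CLP-cDC2 against CDP-cDC2, Xcl1 (1.5, limma adjusted p = 0.002609) and Ctsw (1.41, limma adjusted p = 0.007259) rose and Ccl5 (-1.76, limma adjusted p = 0.001116) and Klrk1 (-0.68, limma adjusted p = 0.03956) fell, with 7.02% and 6.12% of all genes called. Eomes was under 1 FPKM in every library and was not tested, but it was highest in L-cDC2, at 0.366 to 0.681 FPKM against at most 0.204 elsewhere.

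The 13 B cell markers summed to 1000 to 1570 FPKM in L-cDC2, 87.8 to 107 in M-cDC2, 125 to 535 in CLP-cDC2 and 97.5 to 125 in CDP-cDC2, with 6 and 5 of 9 tested genes called higher in the lymphoid group (1.29% and 7.02% of all genes). Igkc, an antibody light chain gene, made up most of the sum in L-cDC2 at 805 to 1370 FPKM. It was at 20.1, 429 and 28.5 FPKM in CLP-cDC2, so the upper end there is replicate 2, the library that also held most of the Cd3g and Cd3e reads of its group. The 6 plasma cell markers summed to 110 to 205, 0.785 to 2.63, 3.15 to 76.5 and 5.26 to 9.0 FPKM in the same order of groups. Cr2, Pax5 and Ebf1 among the B cell markers and Sdc1 among the plasma cell markers stayed under 1 FPKM and were not tested. Ebf1 was at 0.211 to 0.278 FPKM in L-cDC2 and at most 0.0256 elsewhere. Pax5 was at 0.17 to 0.32 FPKM in L-cDC2 and at most 0.26 elsewhere, and Cr2 at 0.23 to 0.42 and at most 0.28. Sdc1 had its highest mean in CLP-cDC2, at 0.235 to 0.497 FPKM. The 10 plasmacytoid dendritic cell markers summed to 133 to 147, 113 to 132, 171 to 311 and 104 to 159 FPKM. The part of other cell types in the members' levels was not tested.

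**Figure D4:**
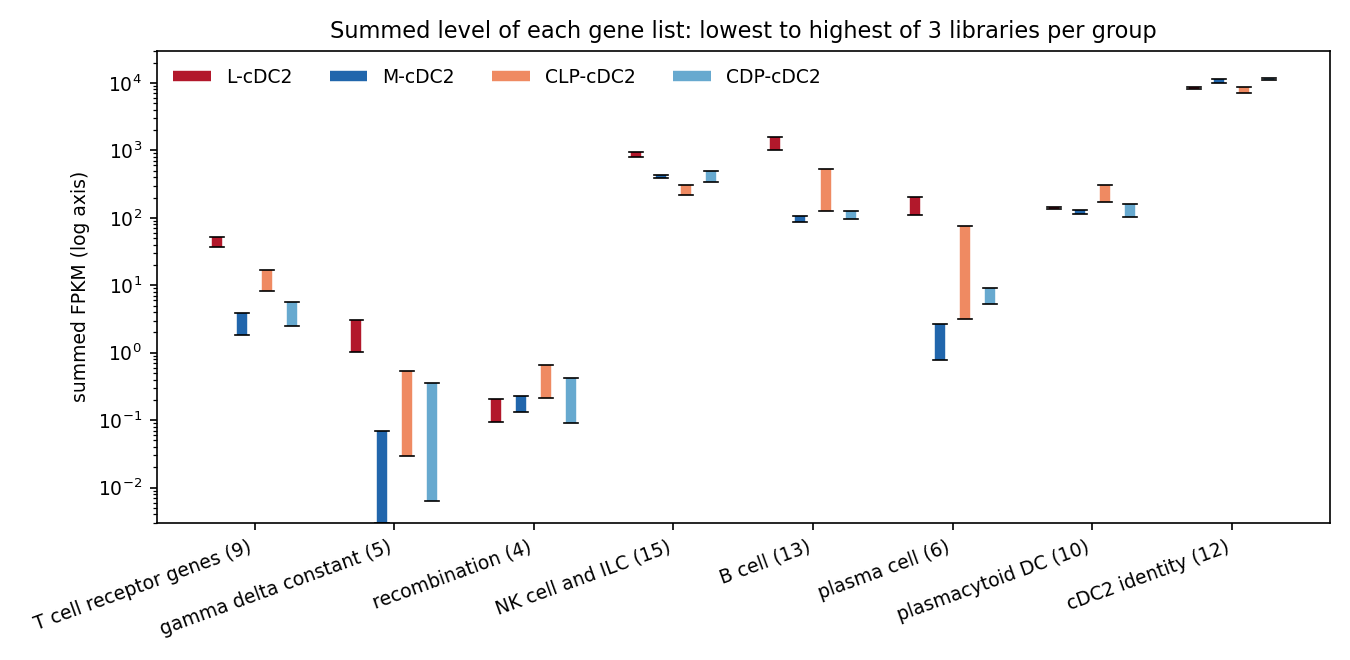
Summed FPKM (vertical axis, log scale) of 8 gene lists, with the number of genes in brackets, drawn from the lowest to the highest of 3 libraries in each group. The sums of the T cell receptor genes (37.4 to 51.3 FPKM), the NK cell markers and the B cell markers are all highest in L-cDC2. The sum of the cDC2 identity genes is not, and H2-Ab1 makes up most of that sum. H2-Ab1 alone is at 7424 to 8053 FPKM in L-cDC2 and 9281 to 11070 in M-cDC2, so the bars do not show the other identity genes. The lowest gamma delta bar of M-cDC2 starts at 0 and is cut at the axis.

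The tested genes nearest to each member were found by the root mean square difference between mean-centred log2(FPKM + 1) profiles over the 12 libraries, as a description. Nearest to Trbc2 were Klra7 (0.30), Ncr1 (0.31) and Il2rb (0.38), and nearest to Cd2 were Gimap3 (0.29), Klra7 (0.32) and Xcl1 (0.34). Trbc1 lay nearest to Ctsw (0.29), Klra7 (0.46) and Gimap1 (0.47). For Lck they were Mir8119 (0.37), which lies within it, Ctsw (0.45) and Trbj1-1 (0.47). Klra7, Ncr1, Il2rb, Xcl1 and Ctsw are genes of NK cells and other cytotoxic lymphocytes. Cd247 lay nearest to Trbj1-4 (0.14), Hsd11b1 (0.17) and Bend5 (0.18), and Trac to Spef1l (0.25), Cd38 (0.27) and Kif17 (0.27). Trbj1-4, of 51 bases, held only 2.5, 2.0 and 5.42 reads in L-cDC2 replicates 1 to 3 and 0 in the other groups. Ncr1 and Il2rb, like Cd247, had passed the filter through L-cDC2 alone. The members' own standard deviations on this scale ran from 0.47 for Trac to 1.40 for Cd2, so small distances are partly set by small variation.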

How the data were processed

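The authors deposited FPKM values of 55322 genes for the 12 libraries, made with a SMART-Seq HT kit and Nextera XT per the labels. Per the submitters' processing notes, STAR 2.7.9a and featureCounts 2.0.1 were among the tools, as were cutadapt 3.7, Trimmomatic 0.39 and Trim Galore 0.6.7 (roles not stated), with builds GRCh38 and GRCm38. A strand setting for counting was not found in those sources. Deposited coordinates differ from GRCm38 annotation and are printed as deposited, with their build not given, while sequences are from GRCm38.

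Reads were recovered from the smallest steps of FPKM times length, taking the commonest low value as 1 read, and a floor of 3 reads covers counting error only. limma 3.58.1 (R 4.3.3, eBayes with trend) fitted log2(FPKM + 1) of 14538 genes (at least 1 FPKM in at least 3 libraries) over 4 group means with 8 residual degrees of freedom, two-sided, called at an adjusted p under 0.05. The fit was tested on simulated data. No pair of libraries of a group held identical values. Alternatives were pseudocounts of 0.1 and 5, other filters and scalings, array weights, no trend, a replicate block, limma-voom on recovered reads and each library left out.

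The members and gene lists were chosen with earlier results of these data known. Named genes are the 9 members, up to 4 called genes per list and direction, pathway genes at 5 FPKM or more, the 3 nearest profiles per member and overlapping genes. Low genes that define a cell type were named after their values were seen. Tables were handled with version 1.17.8 of data.table, Python 3.11.15, numpy 2.4.6, pandas 2.3.3 and matplotlib 3.10.9.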

Additional observations from a re-analysis of the deposited data

Results flagged for a closer look

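The difference between lymphoid and myeloid origin was not the same in the fate-mapping mice (L-cDC2 minus M-cDC2) and after progenitor transfer (CLP-cDC2 minus CDP-cDC2) for 4 members, by limma's test of the difference itself. It was larger in the fate-mapping mice by 2.56 on the log2(FPKM + 1) scale for Trbc2 (limma adjusted p = 0.003728), by 2.18 for Cd2 (limma adjusted p = 0.01237), by 1.26 for Trac (limma adjusted p = 0.04375) and by 0.94 for Cd247 (limma adjusted p = 0.02462). Cd247 and Trac had passed the filter on low values through L-cDC2 (1 M-cDC2 library besides for Trac), so their part in this is not support. The Trac call was lost in 17 of 23 alternatives, that of Cd247 in 10 of 23, that of Cd2 in 3 of 24 and that of Trbc2 in 0 of 24, and limma-voom called 2 of the 4. Trac differed in sign between the systems, at 0.87 and -0.39, and neither of those differences passed on its own.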

How the results depend on the processing

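All alternatives below were planned. The 5 members called in L-cDC2 over M-cDC2 became 3 with a filter of 5 FPKM, which leaves Trbc2, Lck and Cd2 in the test, and stayed at 5 with each library left out. The 2 called in CLP-cDC2 over CDP-cDC2 became 1 with a pseudocount of 5, without the filter, with the filter of 5 FPKM, with only those groups in the fit, with array weights and without replicate 3 of both M-cDC2 and CDP-cDC2, and ranged from 1 to 3 with 1 library left out. The 4 called in the difference between the systems became 1 with a pseudocount of 0.1 and without the filter, and 2 with the filter of 5 FPKM, quantile normalization, limma-voom and without those replicates 3, with 2 to 4 in fits with 1 library left out. The 5 called in CLP-cDC2 against L-cDC2 became 2 with the filter of 5 FPKM, 4 with a pseudocount of 0.1, without the filter, with quantile normalization and with limma-voom, and ranged from 3 to 5 with 1 library left out. Without the filter both Trbc1 and Trac were lost there and Cd3g was called. The replicate block left 2 of the 4 calls in the difference between the systems. Shared mice for L-cDC2 and M-cDC2 are not stated, and the replicate numbers were not taken as pairs, since same-numbered libraries correlated by 0.128, -0.224 and -0.0756 (L-cDC2 and M-cDC2) and -0.0342, 0.282 and 0.0853 (CLP-cDC2 and CDP-cDC2). Signs reversed only in results that did not pass. Trbc1 in CDP-cDC2 minus M-cDC2 ranged from -0.16 (without CDP-cDC2 replicate 2) to 0.39 with 1 library left out, and Cd2 in that comparison was 0.070 with array weights and ranged from -0.26 to 0.038 (without CDP-cDC2 replicate 1). The Trbc1 and Trbc2 pair was 0.49 with a pseudocount of 0.1 and ranged from -0.14 to 0.14 with 1 library left out (0.11 without CDP-cDC2 replicate 2, 0.06 without L-cDC2 replicate 2, 0.01 without M-cDC2 replicate 2), and the Cd3d and Cd3e pair ranged from -0.075 to 0.030 (without M-cDC2 replicate 1). The cause of these changes was not tested beyond the number of genes or libraries. Depth limits Cd3e, Cd3g and Trbc1, which held fewer than 3 reads in 7, 6 and 4 of the 12 libraries.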
